A study of Mus musculus with 16 samples.

Results

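Cdkn2b, Mdm2, Ccne1, Pmaip1, Gadd45a and Sesn2 are 6 genes of the cell cycle and of the response to the tumour suppressor p53, and their histone marks were compared between mouse stromal cells with and without the deubiquitinase BAP1. The genes were chosen by name for their function, and all 6 were found among the 3925 genes whose surroundings were measured. Endosteal mesenchymal stromal cells, the connective-tissue precursors that line the inner surface of bone, came from C57BL/6J mice of 2 genotypes. Both genotypes carry the floxed allele Bap1fl/fl. The control (WT) is Bap1fl/fl alone, and the conditional knockout (cKO) is Prx1-cre;Bap1fl/fl, in which the Prx1 promoter drives the recombinase Cre in limb-bud mesenchyme and the cells that descend from it. The labels used here give neither age nor sex. Chromatin immunoprecipitation with sequencing (ChIP-seq) was done for 4 histone marks, with 2 libraries for each genotype and mark and 16 in all.

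The p53 protein is a transcription factor that is stabilised by DNA damage and other stress and switches on genes that stop division, repair damage or kill the cell. Mdm2 is both a p53 target and the ubiquitin ligase that degrades p53; Pmaip1 (NOXA) is a pro-apoptotic BH3-only protein; Gadd45a takes part in growth arrest and DNA repair; and Sesn2 encodes a sestrin, a stress-induced restraint on mTORC1 signalling. Cdkn2b encodes p15INK4b, which inhibits the cyclin D kinases CDK4 and CDK6, and is a well-known Polycomb target. Ccne1 encodes cyclin E1, which activates CDK2 at the entry into S phase. BAP1 removes the ubiquitin that Polycomb repressive complex 1 places on a lysine of histone H2A (the mark H2AK119ub1). H3K27me3 is the mark of Polycomb repressive complex 2, and H3K4me3 and H3K27ac mark active promoters.

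Each window covered 10 kb around a gene's annotated start, in 50 bp bins, and the promoter is taken here as the 2 kb on each side of the start. The promoters lie on chromosome 4 for Cdkn2b (89309040 to 89313039) and Sesn2 (132508502 to 132512501), chromosome 10 for Mdm2 (117708759 to 117712758), chromosome 7 for Ccne1 (38105535 to 38109534) and chromosome 6 for Gadd45a (67035407 to 67039406), in GRCm38, and all 5 genes are on the minus strand. The gene is 21.88 kb long for Mdm2 and 17.65 kb for Sesn2, so that the downstream end of their windows lies inside the gene, whereas Gadd45a is 2.31 kb long and ends within its window. None of the 6 promoters overlapped that of another measured gene. The authors marked Gadd45a as UP and the other 5 genes as DOWN, without a contrast or threshold in the sources used here. All 3925 measured windows carry such a mark, 1904 UP and 2021 DOWN. Shares of promoters or windows tested for a mark therefore describe this marked list and not the genome. A gene said not to be measured is one absent from the list.

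The DNA just before the start is shown for the 4 genes whose H3K4me3 moved most along the window or against its neighbours: Mdm2 and Sesn2, which lost H3K4me3 downstream of the start, Gadd45a, which gained it there, and Cdkn2b, the inhibitor gene. Each sequence is the 250 bases before the RefSeq start in GRCm38.p6, read 5′ to 3′ on the gene's own minus strand. Capitals mark 4 motifs, each searched for on both strands. They are the GC box of Sp1-type factors, spelled GGGCGG; the box named CCAAT after its letters, which NF-Y recognises; the cyclic AMP response element or CRE, which is the palindrome TGACGTCA; and the p53 half-site, of which a full p53 element has a pair.
Mdm2, chr10:117710759-117711008: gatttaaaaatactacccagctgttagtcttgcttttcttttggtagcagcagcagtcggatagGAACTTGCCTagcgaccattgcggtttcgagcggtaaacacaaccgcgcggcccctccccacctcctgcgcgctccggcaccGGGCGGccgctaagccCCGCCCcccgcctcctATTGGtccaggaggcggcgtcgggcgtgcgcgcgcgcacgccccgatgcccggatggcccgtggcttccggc
Sesn2, chr4:132510457-132510706: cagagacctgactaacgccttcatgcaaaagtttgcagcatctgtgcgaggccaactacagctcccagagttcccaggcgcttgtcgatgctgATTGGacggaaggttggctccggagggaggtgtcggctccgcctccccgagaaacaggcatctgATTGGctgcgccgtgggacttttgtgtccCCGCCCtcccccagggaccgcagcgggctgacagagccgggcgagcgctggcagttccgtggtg
Gadd45a, chr6:67037408-67037657: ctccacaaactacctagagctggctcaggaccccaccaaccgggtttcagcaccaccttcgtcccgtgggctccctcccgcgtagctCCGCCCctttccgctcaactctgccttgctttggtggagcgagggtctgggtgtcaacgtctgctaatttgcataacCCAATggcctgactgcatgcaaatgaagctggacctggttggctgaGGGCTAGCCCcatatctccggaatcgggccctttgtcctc
Cdkn2b, chr4:89311033-89311282: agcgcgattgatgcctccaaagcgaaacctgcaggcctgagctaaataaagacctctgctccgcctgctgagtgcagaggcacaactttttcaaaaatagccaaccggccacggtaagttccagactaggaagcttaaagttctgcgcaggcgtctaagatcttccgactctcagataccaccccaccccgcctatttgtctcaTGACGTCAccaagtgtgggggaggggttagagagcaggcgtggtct
Mdm2 held 2 GC boxes, 1 CCAAT box and 1 p53 half-site, which began 186 bases before the start. Gadd45a held 1 GC box, 1 CCAAT box and 1 p53 half-site at 40 bases before the start, and Sesn2 1 GC box and 2 CCAAT boxes. Cdkn2b held none of these but 1 CRE at 46 bases before the start. The same stretch of Ccne1 held 4 GC boxes and 34 CG dinucleotides, more CG than 96.6% of the 27025 mouse promoters searched. Over those promoters a GC box was present in 32.9%, a CCAAT box in 34.5%, a CRE in 1.62% and a p53 half-site in 7.18%. The sequence of Pmaip1 was not used here. A search for the TATA box found none in the 5 promoters, and one in 13.0% of all. A match describes the letters and not a bound site.

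The libraries held 1283020 to 10101047 counts over all bins, fewest for H3K27me3 and most for H3K4me3, and each read filled about 3 neighbouring bins. Libraries of 1 group correlated at Pearson r 0.858 to 0.99 across promoters and differed by more than counting noise (chi-square 2 to 3.6 times its degrees of freedom). Nothing in the labels ties them to separate animals, so the p-values reflect only how far these libraries differ, and that could be technical. For H3K4me3 and H3K27ac the titles and the antibody fields are crossed, and the titles are used here. In WT a window's median share of counts within 2 kb of the start was 82.2% in the libraries titled H3K4me3 and 61.3% in those titled H3K27ac. It was 42.2% for H2AK119ub1 and 39.4% for H3K27me3, where the promoter is 4 kb of the 10 kb window. By median these 2 marks were thus spread almost evenly over the window, and their promoter changes are of a signal with little peak at the start. Of 13 stromal marker genes 9 were measured, and 7 of the 9 lay above the median H3K4me3 promoter in WT and 3 in cKO. Their summed H3K4me3 was 3231 and 2979 CPM (counts scaled to a library of 1e6) in the WT libraries and 1404 and 1313 in cKO, and their summed H3K27ac was 3091 and 2728 CPM in WT and 1358 and 1281 in cKO. Of 10 blood markers 1 was measured, Lyz2, at 11.4 CPM of H3K4me3 in WT and 10.1 in cKO against a WT median of 165.5; of 7 markers of other bone cells 1 was measured, Ctsk, at 127.9 and 110.5 CPM in the WT libraries and 12.2 and 14.6 in cKO; and none of 7 endothelial markers was measured. The part of this marker shift in the results below was not tested, and in bulk cells a change in every cell cannot be told apart from a change in the mix of cells.

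In cKO cells the 6 genes did not move as a group. H2AK119ub1 rose at Cdkn2b, Mdm2 and Ccne1 and fell at Pmaip1 and Gadd45a. H3K4me3 rose at Ccne1 and Gadd45a and fell at Pmaip1 and Sesn2, and H3K27ac rose at Cdkn2b and fell at Pmaip1 and Sesn2. H3K27me3 was not called at any of them. These are calls of edgeR's quasi-likelihood test over all promoters of a mark at an adjusted p of at most 0.05, with log2 changes given as cKO over WT ± SE.

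The background was high. Among all promoters tested, H2AK119ub1 was called higher in 16.7% and lower in 16.4%, against 3 and 2 of the 6 genes. H3K4me3 was called higher in 40.5% and lower in 31.8%, against 2 and 2, and H3K27ac in 30.9% and 29.1%, against 1 and 2. For H3K27me3 12.4% were called higher and 15.6% lower, against 0 of the 6 by edgeR, by DESeq2 and at an unadjusted p of at most 0.05. Libraries of the genotypes did not overlap at 3 to 6 of the genes, depending on the mark, which was common over all promoters too. Both cKO libraries lay above both WT libraries at 3 genes for H2AK119ub1 and H3K27me3 and at 4 for H3K4me3 and H3K27ac, beside 34.4%, 30.9%, 44.9% and 40.1% of all promoters. Both lay below at 2, 0, 2 and 2 genes, beside 32.5%, 31.4%, 40.5% and 39.6%. The median log2 change of the 6 genes was 0.42 for H2AK119ub1, 0.26 for H3K27me3, 0.08 for H3K4me3 and 0.24 for H3K27ac, beside 0.02, 0.03, 0.04 and 0.00 over all promoters. With 4 libraries to a mark the H2AK119ub1 calls were fragile: without cKO replicate 1 none of the 5 passed (adjusted p 0.0629 to 0.233), and over all promoters 4 were then called higher and 19 lower.

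**Figure D1:**
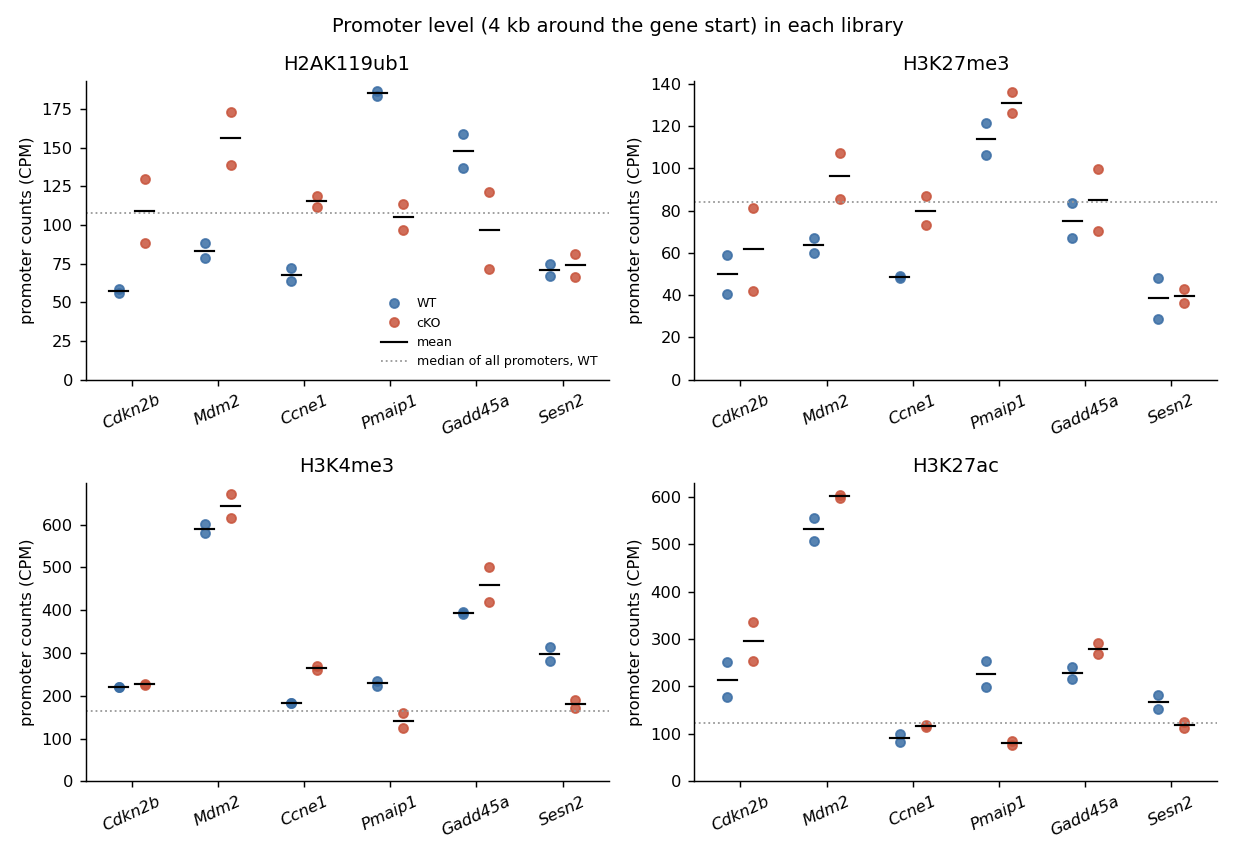
Promoter level of each gene, in CPM summed over the 4 kb around the start, for each of the 4 marks; blue points are the 2 WT libraries, red points the 2 cKO libraries, black bars their means, and the dotted line the median of all promoters in WT. In the H3K27ac panel Pmaip1 lies at 253 and 199 CPM in WT and at 76.2 and 84.6 in cKO, and in both active marks Mdm2 is the highest of the 6 in all libraries.

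Cdkn2b (ENSMUSG00000073802) gained H2AK119ub1 and H3K27ac at its promoter, while its summed H3K4me3 stayed within a few percent. Its H2AK119ub1 was 56.3 and 58.6 CPM in the WT libraries and 129.7 and 88.3 in cKO. Both cKO libraries lay above both WT libraries, and the rise was 0.92 ± 0.27 (adjusted p = 0.00435). It was not called within 1 kb of the start (0.61, adjusted p = 0.266) or without cKO replicate 1 (0.62, adjusted p = 0.233), while over the whole window it was 1.08 (adjusted p = 0.0001). In WT the promoter carried more H2AK119ub1 than only 9.3% of promoters, and in cKO more than 42.9%. The rise was not limited to the promoter: 2 to 5 kb upstream, values went from 33.2 and 40.4 CPM to 81.5 and 87.6, a rise of 1.20 ± 0.31 (adjusted p = 0.00327, and 0.0546 without cKO replicate 2). Over 2 to 5 kb downstream it rose from 23.6 and 40.9 CPM to 72.1 and 74.3, by 1.18 ± 0.34 (adjusted p = 0.013, above 0.05 without WT replicate 1 or either cKO library). Upstream H2AK119ub1 was called higher at this gene alone of the 6, beside 8.19% of windows, and lower at Pmaip1 alone, beside 10.7%; downstream it was called higher at Cdkn2b alone, beside 5.56%, and lower at none, beside 10.4%. H3K27me3, the mark usually named with this gene, lay at 40.5 and 59.1 CPM in WT and 81.3 and 42.0 in cKO, so the groups overlapped (0.31 ± 0.44, adjusted p = 0.654). The promoter was poor in H3K27me3 already in WT, with more than only 15.6% of promoters and a mean of 49.8 CPM beside a median of 83.8.

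H3K4me3 at Cdkn2b was 219.9 and 219.8 CPM in WT and 225 and 228 in cKO over the 4 kb (0.04 ± 0.10, adjusted p = 0.703), but its shape differed between the genotypes. In the 500 bp after the start it was 74.1 CPM in both WT libraries and 104 and 103 in cKO. Between 1500 and 2000 bp it was 21.8 and 17.7 in WT and 4.12 and 7.40 in cKO. Counting only 1 kb to each side gave a rise of 0.30 (adjusted p = 0.0116). The signal at 2 to 5 kb was 28.5 and 26.1 CPM in WT and 9.81 and 18.3 in cKO, a fall of 0.94 ± 0.32 on the log2 scale (adjusted p = 0.0263, above 0.05 without cKO replicate 1, WT replicate 1 or WT replicate 2). Such a shape was not particular to Cdkn2b: 29.8% of windows had a lower H3K4me3 change downstream, where the median was -0.49. The promoter's share of the window's H3K4me3 went from 86.6% to 90.3%, beside medians of 82.2% and 88.7% over all windows with at least 100 counts. H3K27ac was 178 and 251 CPM in WT and 337 and 255 in cKO, without overlap and with the ranges nearly touching (0.46 ± 0.17, adjusted p = 0.0234, 0.0501 by DESeq2, 0.068 over the whole window and 0.0964 in a fit of all 16 libraries). It was above 0.05 without WT replicate 1 (0.355) or cKO replicate 1 (0.271).

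The windows around Cdkn2b were higher in cKO by median in all 4 marks. The 20 nearest measured windows lay within 9.08 Mb, and all 20 had more H2AK119ub1 in cKO, with a median log2 change of 0.80. Relative to them the gene's promoter differed by 0.12 (adjusted p = 0.829). All 20 were higher in H3K27me3 too, by a median of 0.71. Relative to that median the promoter was at -0.40 ± 0.44 (adjusted p = 0.6). The same 20 windows rose by a median of 0.84 in H3K4me3 and 0.97 in H3K27ac. Relative to them Cdkn2b was lower, by -0.79 in H3K4me3 (adjusted p = 3.62e-14) and by -0.51 in H3K27ac (adjusted p = 0.0166). The median is entered as a fixed number, so these p-values leave out the spread among the windows. In H3K4me3 the quartiles of the 20 windows were 0.55 and 1.23, and 1 of them lay below Cdkn2b over its 10 kb. Against the outer 1 kb flanks of the same windows neither differed past the threshold: H3K4me3 was at -0.01 (adjusted p = 0.952) and H3K27ac at 0.19 (adjusted p = 0.37). Of these neighbours 16 carried the authors' mark UP and 4 DOWN, so they are not a random sample of the region.

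Ccne1 (ENSMUSG00000002068), the cyclin gene, gained H2AK119ub1 and H3K4me3 together. Its H2AK119ub1 was 72.2 and 63.5 CPM in WT and 111.8 and 119.1 in cKO, a rise of 0.77 ± 0.25 (adjusted p = 0.0118). Its H3K4me3 was 183 and 184 CPM in WT and 269 and 259.6 in cKO, a rise of 0.52 ± 0.10 (adjusted p = 5.99e-07). Neither mark's groups overlapped, and the H3K4me3 libraries of each genotype lay within a few percent of each other. The H2AK119ub1 call was lost without WT replicate 2 (0.0535), cKO replicate 1 (0.119) or cKO replicate 2 (0.138), within 1 kb of the start (0.97, adjusted p = 0.0598) and over the whole window (0.33, adjusted p = 0.0896). The H3K4me3 call held without each library. The H3K4me3 gain lay on the start itself: from 59.9 and 71.5 CPM to 109 and 103 in the 500 bp after it, and from 33.7 and 28.6 to 66.3 and 57.2 in the 500 bp before it. Between 1000 and 1500 bp the order was the opposite, with 18.4 and 14.4 CPM in WT and 7.76 and 4.83 in cKO. H3K27ac was 83.2 and 100.1 CPM in WT and 118.8 and 115.3 in cKO (0.35 ± 0.20, adjusted p = 0.133), below the WT median promoter of 123.9 in all 4 libraries.

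The 20 windows nearest Ccne1 had median changes of 0.30 in H2AK119ub1, 0.70 in H3K4me3 and 0.57 in H3K27ac. Relative to them the gene's changes were 0.46 (adjusted p = 0.24), -0.18 (adjusted p = 0.122) and -0.22 (adjusted p = 0.384). Its higher H3K4me3 was thus of the size seen in windows around it, and 13 of the 20 windows had a larger H3K4me3 change over their 10 kb.

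Mdm2 (ENSMUSG00000020184) gained H2AK119ub1 at its promoter and lost H3K4me3 further into the gene. H2AK119ub1 was 78.4 and 88.2 CPM in WT and 139 and 173 in cKO, a rise of 0.91 ± 0.22 (adjusted p = 0.000561). The groups did not overlap, and the promoter went from above 26.9% of promoters to above 90.3%. The call was lost without cKO replicate 1 (0.0629) and without cKO replicate 2 (0.09). Upstream and downstream of the promoter the changes were 0.51 ± 0.27 (adjusted p = 0.161) and 0.08 ± 0.27 (adjusted p = 0.864). Its neighbours changed little, with a median of 0.12, and relative to them the gene still rose by 0.79 (adjusted p = 0.0108).

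Mdm2 also carried the strongest active marks of the 6. Its promoter H3K4me3 was 601 and 581 CPM in WT and 671 and 617 in cKO (0.12 ± 0.07, adjusted p = 0.108, and 0.0302 without cKO replicate 2), above 97.8% of WT promoters. In the 500 bp after the start the level was 128 and 143 CPM in WT and 234 and 206 in cKO. Within 1 kb of the start the rise was 0.56 (adjusted p = 1.08e-08), and beyond 1 kb the order turned. Between 1500 and 2000 bp it was 108 and 105 CPM in WT and 29.8 and 26.8 in cKO, and between 2000 and 2500 bp 85.9 and 63.2 against 8.55 and 15.8. The WT profile was thus a shoulder several kb wide that was nearly gone in cKO, beside a higher peak at the start.

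Summed over 2 to 5 kb downstream, Mdm2 H3K4me3 was 230.2 and 219 CPM in WT and 39.7 and 44.9 in cKO. This fall of 2.40 ± 0.16 on the log2 scale (adjusted p = 3.04e-10) was larger than that of all but 3.3% of the 3855 windows tested there, over which the median was -0.49. In that part 28.2% of windows were called lower and 7.81% higher. Leaving out any 1 library gave -2.32 to -2.50. The share of the window's H3K4me3 that lay there was 27.1% in WT and 6.0% in cKO, beside medians of 9.2% and 5.6% over 3791 windows with at least 100 counts. The p53-responsive promoter of Mdm2 is known to lie in the first intron, downstream of the start used here. Its place among these parts of the window was not examined, so the loss at 2 to 5 kb is not assigned to it. H3K27ac at the promoter was 507 and 555 CPM in WT and 603 and 598 in cKO (0.18 ± 0.13, adjusted p = 0.251) and rose within 1 kb of the start (0.43, adjusted p = 0.0139), while downstream it was 136 and 100.4 in WT and 90.4 and 86.4 in cKO (-0.42 ± 0.25, adjusted p = 0.193).

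**Figure D2:**
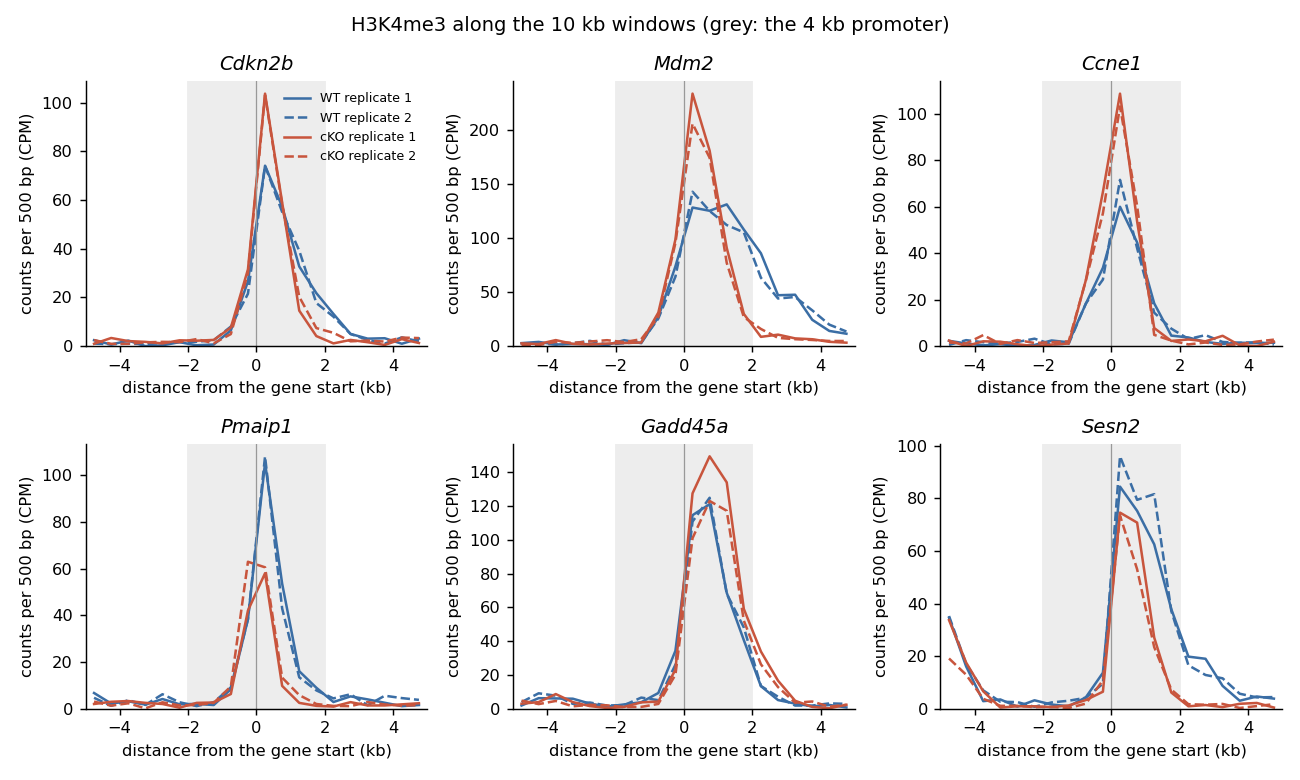
H3K4me3 along the 10 kb window of each gene, in CPM per 500 bp against distance from the gene start in kb (positive is downstream); blue lines are WT and red lines cKO, solid for replicate 1 and dashed for replicate 2, and grey marks the 4 kb promoter. At Mdm2 the red lines fall below the blue ones from about 1 kb after the start, and at Gadd45a they lie above them there. At Sesn2 the red lines lie below the blue ones from the start on. At Pmaip1 the WT peak of 105 and 108 CPM after the start is 58.1 and 60.6 in cKO.

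Gadd45a (ENSMUSG00000036390), the growth arrest gene and the only one of the 6 marked UP by the authors, had less H2AK119ub1 and more H3K4me3 in cKO, the latter to the downstream side. H2AK119ub1 was 159 and 137 CPM in WT and 122 and 71.8 in cKO, a fall of 0.62 ± 0.22 on the log2 scale (adjusted p = 0.019). The groups did not overlap, but the cKO libraries were far apart, and the call was lost when WT replicate 1 (0.121), cKO replicate 1 (0.0653) or cKO replicate 2 (0.451) was left out, and within 1 kb of the start (-0.81, adjusted p = 0.0749). Relative to its neighbours, with a median of -0.37, the change was -0.25 (adjusted p = 0.498). Promoter H3K4me3 was 395 and 392 CPM in WT and 502 and 418 in cKO, a rise of 0.22 ± 0.08 (adjusted p = 0.00754). That rise is small, and the adjusted p was 0.0557 by DESeq2, 0.14 without TMM factors, 0.0902 with TMM factors from promoters, 0.35 in the fit of all 16 libraries, 0.0528 without WT replicate 2 and 0.428 without cKO replicate 1. Within 1 kb of the start the change was 0.01 (adjusted p = 0.934).

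The gain at Gadd45a lay away from the start. In the 500 bp after the start H3K4me3 was 115 and 111 CPM in WT and 127 and 101 in cKO, which overlap. Between 1000 and 1500 bp it was 68.6 and 68.1 in WT against 134 and 117 in cKO, and between 2000 and 2500 bp 13.4 and 13.5 against 33.9 and 26.3. Summed over 2 to 5 kb it rose from 26.1 and 30.5 CPM to 59.0 and 50.7, by 0.95 ± 0.24 (adjusted p = 0.00384, and 0.0023 to 0.0257 with any 1 library left out). Of all windows 94.0% had a lower log2 change there. Since the gene is 2.31 kb long, most of this stretch lies past its 3′ end. H3K27ac had the same shape, with 30.2 and 36.8 CPM in WT and 73.3 and 55.7 in cKO between 1000 and 1500 bp, although the promoter sum of 216 and 240.2 against 292 and 267 was not called (0.29 ± 0.16, adjusted p = 0.105).

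Gadd45a stood out from the 20 nearest measured windows, which lay up to 12.44 Mb away. Over their 10 kb all 20 neighbouring windows lay below it in H3K4me3 and in H3K27ac; their median changes were -0.47 and -0.54, and 17 of the 20 carried the mark DOWN. Relative to them the promoter was higher by 0.69 ± 0.08 in H3K4me3 (adjusted p = 2.58e-17) and 0.83 ± 0.16 in H3K27ac (adjusted p = 4.16e-05). Over all promoters 34.8% and 23.9% were called higher in this comparison, whose p-values leave out the spread among the neighbours. As at Cdkn2b, the neighbours are not a random sample of the region, since Gadd45a is marked UP and most of them DOWN.

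Pmaip1 (ENSMUSG00000024521), the pro-apoptotic p53 target on the plus strand of chromosome 18 (promoter 66456533 to 66460532), lost 3 of the 4 marks. H3K27ac fell most, from 253 and 199 CPM in WT to 76.2 and 84.6 in cKO. The groups were far apart, and the level in cKO was 0.356 times that in WT (log2 change -1.49 ± 0.19, adjusted p = 2.46e-08), and 5.5% of promoters had a lower change. H3K4me3 fell from 235 and 224 CPM to 125 and 159, by 0.69 ± 0.11 on the log2 scale (adjusted p = 4.09e-09). H2AK119ub1 fell too, from 187 and 184 CPM to 114 and 97.0, by 0.81 ± 0.21 (adjusted p = 0.000917, 0.0668 without cKO replicate 1 and 0.0921 without cKO replicate 2). In WT this promoter held more H2AK119ub1 than 92.4% of promoters, and in cKO more than 38.7%. H3K27me3, at 122 and 106 CPM in WT and 136 and 126 in cKO, had the highest WT mean of the 6 genes and was not called (0.20 ± 0.28, adjusted p = 0.65).

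The H3K4me3 loss at Pmaip1 was on the gene side of the start. In the 500 bp after it the level went from 105 and 108 CPM to 58.1 and 60.6, and in the next 500 bp from 53.7 and 43.0 to 9.81 and 13.4. In the 500 bp before the start it was 38.3 and 38.4 in WT and 42.1 and 63.0 in cKO. H3K27ac fell on both sides of the start, and also 2 to 5 kb upstream, from 93.4 and 73.6 CPM to 27.3 and 29.2 (-1.56 ± 0.26, adjusted p = 0.000432), where H3K27ac was called lower at none of the other 5 genes and higher at none of the 6, beside 10.6% of windows lower and 6.99% higher. H2AK119ub1 fell there too, from 122 and 130.5 CPM to 71.7 and 75.7 (-0.77 ± 0.24, adjusted p = 0.0151, above 0.05 without WT replicate 2 or either cKO library). The neighbours fell as well, by medians of -0.54 in H3K4me3 and -0.66 in H3K27ac. Relative to them Pmaip1 was still lower in H3K27ac (-0.83 ± 0.18, adjusted p = 0.000323) and in H2AK119ub1 (-0.63 ± 0.21, adjusted p = 0.0336) but not in H3K4me3 (-0.15 ± 0.11, adjusted p = 0.265).

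**Figure D3:**
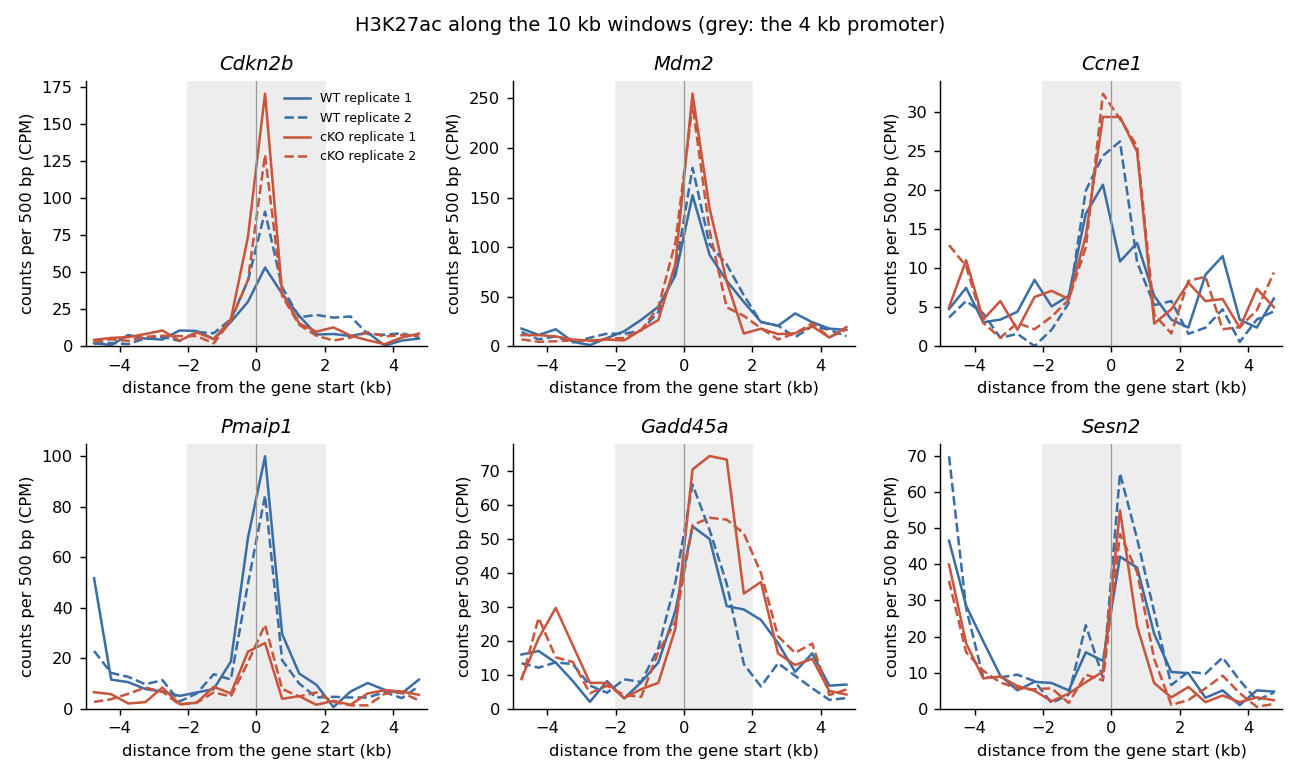
H3K27ac along the 10 kb window of each gene, in CPM per 500 bp against distance from the gene start in kb; blue lines are WT and red lines cKO, solid for replicate 1 and dashed for replicate 2, and grey marks the 4 kb promoter. The Cdkn2b peak after the start is 52.99 and 90.66 CPM in WT and 170 and 129 in cKO, the Pmaip1 peak 99.9 and 84.4 in WT against 26.0 and 33.2 in cKO, and Sesn2 has a second signal at the upstream edge of its window.

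Sesn2 (ENSMUSG00000028893), the sestrin gene, lost both active marks, and neither Polycomb mark was called. H3K4me3 at the promoter was 281 and 313 CPM in WT and 190.3 and 171 in cKO, a fall of 0.72 ± 0.10 on the log2 scale (adjusted p = 8.5e-13). The groups did not overlap, and the direction and call held without each library. H3K27ac was 153 and 183 CPM in WT and 112 and 126 in cKO, a fall of 0.50 ± 0.18 (adjusted p = 0.0179, 0.228 without WT replicate 2, 0.0763 without cKO replicate 1 and 0.145 within 1 kb of the start). H2AK119ub1 was 67.4 and 74.9 CPM in WT and 66.6 and 81.3 in cKO (0.06 ± 0.28, adjusted p = 0.896), and H3K27me3, at 48.3 and 28.8 against 36.4 and 42.7 CPM, had the lowest WT mean of the 6 genes. The counts behind the H3K27me3 values were 37 to 63 a library, so a change of 1 log2 unit would have been within about 2 standard errors (SE 0.52).

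Relative to the WT level, the H3K4me3 loss at Sesn2 grew with distance from the start up to 2500 bp. In the 500 bp after the start the level was 84.4 and 96.0 CPM in WT and 74.6 and 73.4 in cKO, between 1000 and 1500 bp 62.5 and 81.6 against 27.1 and 23.4, and between 2000 and 2500 bp 19.8 and 16.5 against 0.950 and 1.75. Further out H3K4me3 was low in WT too and the loss was smaller, with 3.06 and 5.73 CPM against 1.90 and 0.308 between 3500 and 4000 bp. Over 2 to 5 kb it fell from 59.1 and 55.5 CPM to 7.60 and 8.22, by 2.85 ± 0.27 on the log2 scale (adjusted p = 7.73e-08), a larger fall than in all but 1.9% of windows. The values without each library were -2.80 to -2.92. A separate signal stood at the upstream edge of the window, where H3K27ac between 5000 and 4500 bp before the start was 46.5 and 69.9 CPM in WT and 40.0 and 35.4 in cKO. Over 2 to 5 kb upstream neither active mark was called (H3K4me3 -0.36 ± 0.21, adjusted p = 0.232; H3K27ac -0.57 ± 0.21, adjusted p = 0.0661). The neighbours of Sesn2 were lower in all 4 marks, by medians of -0.56, -0.57, -0.63 and -0.44 in H2AK119ub1, H3K27me3, H3K4me3 and H3K27ac. Relative to them its changes were 0.62 ± 0.28 in H2AK119ub1 (adjusted p = 0.143), 0.61 ± 0.52 in H3K27me3 (adjusted p = 0.481), -0.09 in H3K4me3 (adjusted p = 0.47) and -0.06 in H3K27ac (adjusted p = 0.807). Over their 10 kb 19 of the 20 neighbours lay below Sesn2 in H2AK119ub1.

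Set side by side, the promoter sum and the downstream part of the window gave different orders of the 6 genes for H3K4me3. Mdm2 was among the promoters with no called change and among the 3.3% of windows with the lowest change downstream. Ccne1, with the largest promoter rise of the 6, had no called change downstream (-0.28 ± 0.40, adjusted p = 0.633), where its levels were only 10.6 and 13.2 CPM in WT. Pmaip1 fell in both parts, downstream by 1.07 ± 0.33 on the log2 scale (adjusted p = 0.0151, 0.215 without WT replicate 2). Downstream 4 of the 6 genes were called lower, beside 28.2% of all windows, and 1 higher, beside 7.81%. The downstream part was examined after the profiles had been seen, and the difference between the parts was not itself tested.

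**Figure D4:**
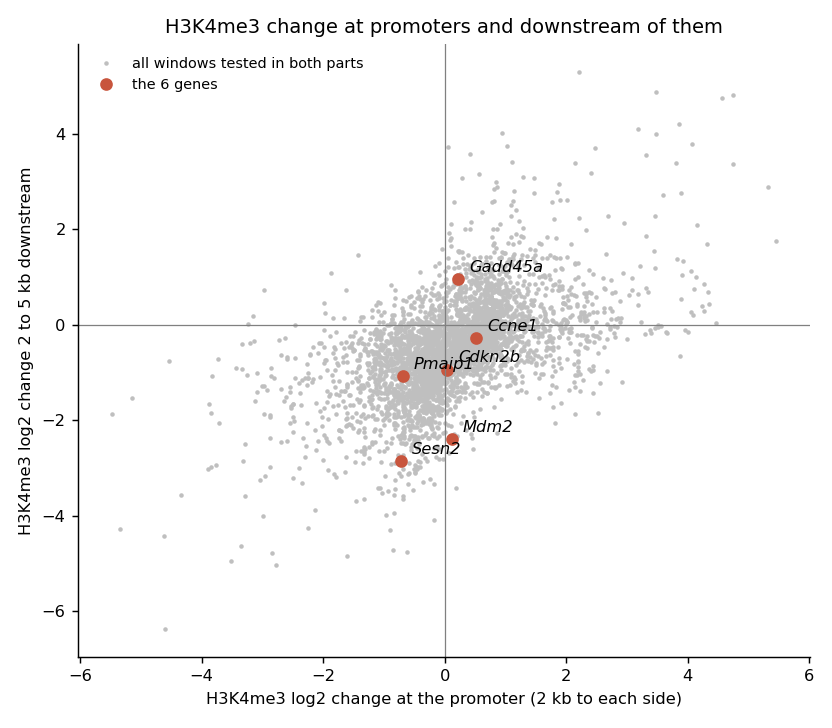
H3K4me3 log2 change (cKO over WT) of the promoter (horizontal axis, 2 kb to each side of the start) and of the part 2 to 5 kb downstream (vertical axis); grey points are all windows tested in both parts and red points the 6 genes. Mdm2 lies at 0.12 and -2.40, Sesn2 at -0.72 and -2.85, and Gadd45a at 0.22 and 0.95.

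Calls relative to the 20 nearest windows take their median as fixed and leave out the spread among them. In this comparison H2AK119ub1 was called higher at Mdm2 and lower at Pmaip1, beside 5.09% and 5.27% of promoters. H3K4me3 was called higher at Gadd45a and lower at Cdkn2b, beside 34.8% and 21.5%. H3K27ac was called higher at Gadd45a and lower at Cdkn2b and Pmaip1, beside 23.9% and 21.5%, and H3K27me3 at none of the 6, beside 10.5% higher and 11.2% lower. At Ccne1 and Sesn2 no mark was called relative to the neighbours, which does not show that they moved alike: the H2AK119ub1 differences were 0.46 ± 0.25 and 0.62 ± 0.28. Since the neighbouring windows include promoters of their own, their outer 1 kb flanks were used as a second reference. Against these the log2 change of H3K4me3 was largest at Gadd45a (1.36 ± 0.08), then Mdm2 (0.73 ± 0.07) and Pmaip1 (0.52 ± 0.11). The changes at Ccne1, Sesn2 and Cdkn2b were -0.03 ± 0.10, 0.03 ± 0.10 and -0.01 ± 0.10. H3K4me3 outside promoters was lower in cKO by median over all windows (-0.42 upstream and -0.49 downstream). The flanks themselves changed by -1.14, -0.61 and -1.21 around Gadd45a, Mdm2 and Pmaip1. Shares of all promoters are not set beside the flank values, which therefore do not single out these genes. The sign at Pmaip1 and the size at Cdkn2b thus depended on which part of the surroundings was the reference, and the direction at Gadd45a did not. In H2AK119ub1 Mdm2 was at 0.79 ± 0.22 against the flanks (adjusted p = 0.01), and Pmaip1 missed the threshold (-0.56 ± 0.21, adjusted p = 0.0532). In H3K27ac Gadd45a was at 1.26 ± 0.16 (adjusted p = 3.61e-08) and Pmaip1 at -0.54 ± 0.18 (adjusted p = 0.0141), while Cdkn2b was no longer called and its sign turned (0.19 ± 0.17, adjusted p = 0.37).

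**Figure D5:**
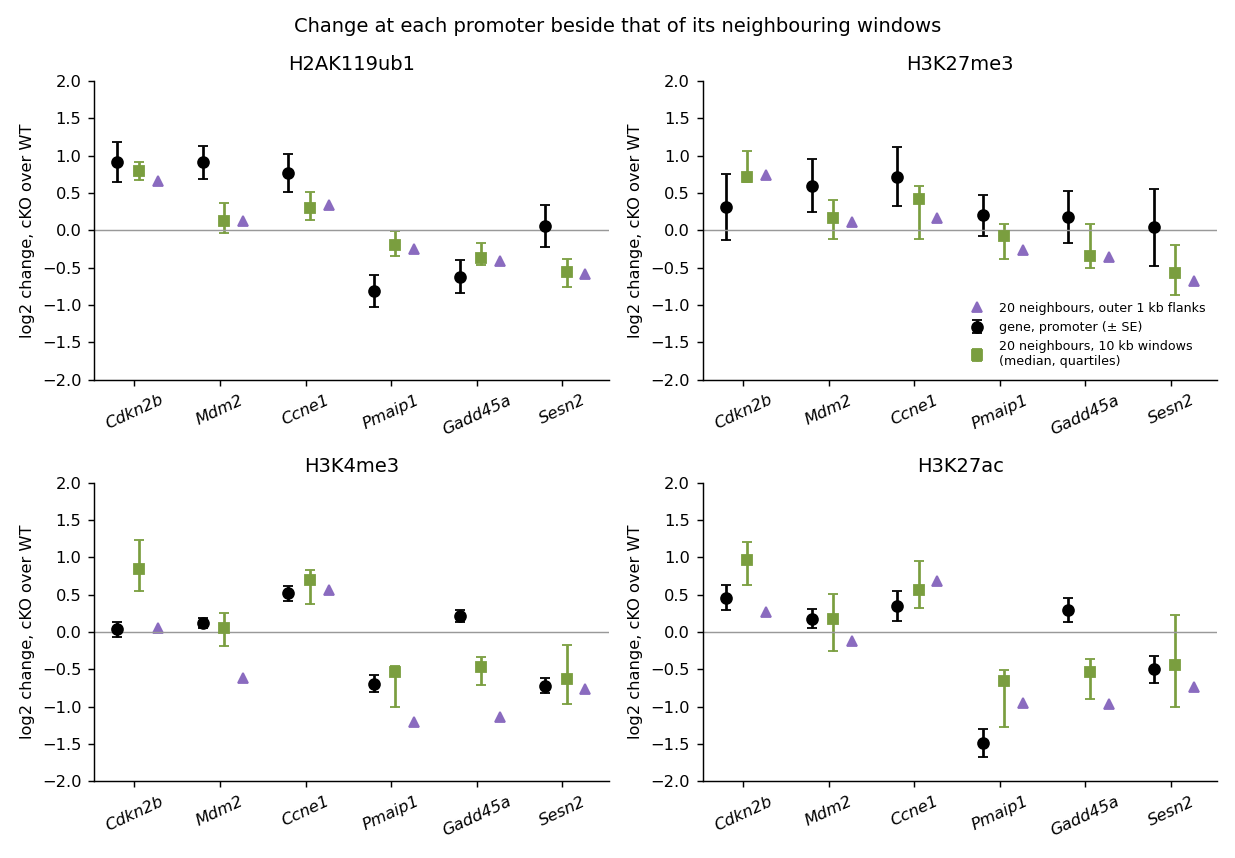
Log2 change (cKO over WT) of each gene's promoter (black, ± SE), of the 20 nearest measured windows (green, median with quartiles over their 10 kb) and of the outer 1 kb flanks of those windows as 1 sum (purple), for each mark. In H3K4me3 Gadd45a lies at 0.22 with its neighbours at -0.47, Cdkn2b at 0.04 with its neighbours at 0.84, and Sesn2 at -0.72 with its neighbours at -0.63.

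H3K27me3 was measured least precisely, and its changes at the 6 genes were 0.04 to 0.72 with standard errors of 0.28 to 0.52. At Ccne1 it was 48.3 and 49.0 CPM in WT and 86.8 and 73.2 in cKO (0.72 ± 0.39, adjusted p = 0.17), and at Mdm2 67.2 and 59.8 against 107 and 85.4 (0.60 ± 0.36, adjusted p = 0.207). Both cKO libraries lay above both WT libraries at these genes and at Pmaip1, beside 30.9% of all promoters. A fit of all 16 libraries, which shares the spread between marks, called both Ccne1 (adjusted p = 0.0128) and Mdm2 (adjusted p = 0.0256). At Gadd45a the libraries overlapped, with 83.6 and 66.8 CPM in WT and 99.5 and 70.5 in cKO (0.18 ± 0.35, adjusted p = 0.761). The median H3K27me3 count per promoter was 95 to 144 a library, against 1032 to 1837 for H3K4me3.

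Of 51 listed p53 pathway genes 17 were measured, 4 of them among the 6, and 12 of the 17 carry the authors' mark DOWN and 5 UP. Among the other 13, H3K4me3 was called lower at 8 and higher at 2, beside 31.8% and 40.5% of all promoters, and H3K27ac lower at 7 and higher at 2, beside 29.1% and 30.9%. Their median log2 changes in these marks were -0.35 and -0.37, beside 0.04 and 0.00 over all promoters. H2AK119ub1 was called higher at 4 and lower at 2, beside 16.7% and 16.4%, and H3K27me3 higher at none and lower at 2, beside 12.4% and 15.6%. Thbs1 (thrombospondin 1) fell from 501 and 494 CPM of H3K4me3 to 269 and 269.9, and from 645 and 608 CPM of H3K27ac to 241 and 210.2. The X-linked Eda2r, a death-domain receptor, fell from 175 and 184 CPM of H3K4me3 to 33.2 and 54.0, by 2.02 ± 0.15 on the log2 scale (adjusted p = 8.91e-39). Its H3K27ac and H3K27me3 fell as well (-2.03 ± 0.20 and -1.16 ± 0.38, adjusted p = 2.14e-10 and 0.0117).

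Perp, a p53 target of cell adhesion and apoptosis, rose from 20.3 and 22.1 CPM of H3K4me3 to 144 and 115 (2.60 ± 0.19, adjusted p = 6.35e-40). At Rprm (Reprimo), a p53-induced inhibitor of the G2 phase, H3K27me3 fell from 366 and 229 CPM to 68.6 and 76.6 (-2.03 ± 0.29, adjusted p = 6.85e-11) and H3K27ac rose by 1.00 ± 0.24 (adjusted p = 0.000562). H2AK119ub1 rose at Polk, a translesion polymerase, by 1.04 ± 0.26 (adjusted p = 0.000726) and at Pml, the organiser of PML nuclear bodies, by 0.91 ± 0.26 (adjusted p = 0.00271), and it fell at Sfn (14-3-3 sigma) by 1.08 ± 0.31 (adjusted p = 0.00272). Of 42 genes that drive the cycle 5 were measured, Ccne1, Ccnb1, E2f2, Myc and Aurka. At the 4 other than Ccne1 the calls were a fall of H3K27me3 at Aurka (-0.98 ± 0.37, adjusted p = 0.0308), the mitotic kinase, and of H3K4me3 there (-0.43 ± 0.07, adjusted p = 2.93e-09). Of 21 genes that brake the cycle 3 were measured, and the third beside Cdkn2b and Gadd45a, the ubiquitin ligase subunit gene Fbxw7, was not called in any mark.

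By the changes in all 4 marks, taken as Euclidean distance between log2 changes over 3875 promoters, the 6 genes had near matches among the other measured promoters. The standard errors of the H3K27me3 changes alone were 0.28 to 0.52 at the 6 genes, so which promoter is nearest is uncertain. The nearest to Cdkn2b were Ascc1 (distance 0.17) and Mrgpre (0.29), and to Mdm2 ENSMUSG00000066568 (0.11) and Atl1 (0.19). For Ccne1 they were Rab30 (0.14), on the same chromosome, and ENSMUSG00000043153 (0.19), and for Sesn2 Pcolce (0.17) and ENSMUSG00000000958 (0.19). Pmaip1 and Gadd45a were farther from any other promoter: the nearest were Cacna1a (0.27) and Cldnd1 (0.27) for Pmaip1, and ENSMUSG00000053615 (0.24) and the imprinted RNA gene Peg13 (0.25) for Gadd45a. None of these nearest promoters was another of the 6.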

How the data were processed

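ChIP-seq counts of 4 histone marks in endosteal stromal cells of WT and cKO mice were used, 2 libraries for each of 8 groups, grouped by the titles. The authors deposited whole-number read counts, not normalised, in 200 bins of 50 bp around the start of 3925 genes, per the file headers. Per the submitters' processing notes the build was GRCm38 and the tools were Bowtie2 2.4.5, cutadapt 1.18, SAMtools 1.9, Picard 2.25.5 and bedtools 2.30.0; settings were not used here. Of isolated runs of filled bins 98.16% were 3 bins long, so summed counts hold each read about 3 times; counted once, the libraries hold 429780 to 3371280 reads within these windows.

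Genes were named by position, from RefSeq (GRCm38.p6): a gene on the same strand with its 5′ end within 500 bp of the window's centre, which named 2999 windows (76.4%); at positions shifted by 20 kb 110 were named. Promoter counts (2 kb to each side) were tested for each mark in its 4 libraries with edgeR 4.0.16 (quasi-likelihood, robust; R 4.3.3), with genotype as the only term, autosomal counts with TMM factors from autosomal 10 kb windows as library size, filterByExpr at a minimum count of 10, and Benjamini-Hochberg adjustment over all promoters. All 6 genes passed the filter in all 4 marks. CPM are scaled by those library sizes, so a shift common to all windows is not detectable. The fitting was tested on simulated data. Neighbours are the 20 nearest windows of the same chromosome that do not overlap. Their median log2 change over 10 kb was a fixed offset in the fit relative to them. The standard errors and p-values of that fit, and of the fit relative to the outer flanks, do not include the spread among neighbours.

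The alternatives, including DESeq2 1.42.0, are given with their effect in the closing section. The outer-flank reference and the parts 2 to 5 kb upstream and downstream were chosen after seeing the data. The 6 genes and the lists were chosen with earlier results of these data known. Named besides the 6 are the 3 genes of lowest p in each mark from the pooled lists, with Fbxw7 and the listed cell-cycle genes named beside small counts, the 2 promoters of nearest change, and marker genes. Promoter sequences came from RefSeq for 5 of the 6 genes; that of Pmaip1 was not used here. Input libraries were not used here, so a shift shared by the marks of a region was not separated from a change of a mark.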

Additional observations from a re-analysis of the deposited data

How the results depend on the processing

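Of the 8 counts of called promoters, none moved by more than 1.5 times with total counts, TMM factors from promoters, scaling on the outer flanks, DESeq2, no filter or 1 bin in 3. Scaling on the outer flanks moved the median H3K4me3 change of all promoters from 0.04 to 0.19 and made Mdm2 a call (0.28, adjusted p = 0.00121). Promoters of 1 kb to each side gave 267 higher and 340 lower for H2AK119ub1 (651 and 636 over 2 kb) and 245 higher for H3K27me3 (483), whole windows 984 lower for H2AK119ub1, and the fit of all 16 libraries 778 higher for H3K27me3. Relative to neighbours H2AK119ub1 gave 198 and 205. Relative to their outer flanks it gave 309 and 173, with 392 lower for H3K27me3 (604) and 651 for H3K4me3 (1240). Upstream the counts higher and lower were 316 and 414 for H2AK119ub1, 264 and 294 for H3K27me3, 170 and 567 for H3K4me3 and 269 and 406 for H3K27ac. Downstream they were 215 and 403, 149 and 382, 301 and 1089, and 493 and 734.

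Leaving out 1 library gave 4 to 564 higher and 19 to 571 lower for H2AK119ub1, 268 to 447 and 358 to 625 for H3K27me3, 1431 to 1520 and 1084 to 1210 for H3K4me3, and 981 to 1189 and 753 to 1051 for H3K27ac. The lone library of a group is then assumed to vary like the others. Where the promoter fit or the alternative was a call, signs turned for H3K4me3 at Mdm2 over the whole window (-0.24), at Gadd45a upstream (-0.45), at Cdkn2b, Mdm2 and Ccne1 downstream (-0.94, -2.40 and -0.28), at Cdkn2b and Ccne1 relative to neighbours (-0.79 and -0.18), and at Ccne1, Pmaip1 and Sesn2 relative to their flanks (-0.03, 0.52 and 0.03). For H3K27ac they turned at Cdkn2b downstream (-0.39) and relative to neighbours (-0.51), and at Sesn2 relative to flanks (0.23). Changes called in neither fit turned as well, such as H3K27me3 at Cdkn2b relative to neighbours (-0.40), and are not listed. The cause was not tested; these settings sum other bins or subtract a regional change.

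Replicate numbers did not pair the libraries: same-numbered libraries deviated together with correlations of -0.0133 for H2AK119ub1, -0.0396 for H3K27me3, 0.0975 for H3K4me3 and 0.0545 for H3K27ac. The replicate block gave 642 higher and 623 lower, 453 and 568, 1592 and 1256, and 1224 and 1158 in that order of marks, and changed no call at the 6 genes.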
